A study of Mus musculus with 16 samples.

Results

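The comparison described here asked what vesicles of a prostate cancer line added to the response of an osteoclast precursor line to RANKL over 48 h. It compared 4 of the 16 libraries of the series, chosen by the treatment and time in their names. They were 2 libraries of cells given vesicles and RANKL (EV+RANKL) and 2 of cells given RANKL alone (RANKL). The cells were RAW264.7, a mouse macrophage line that can be driven to form osteoclasts in culture. All groups were left to attach for 12 h before treatment. EV+RANKL cultures then received vesicles from PC3M, a metastatic derivative of a human prostate cancer line, at 30 µg/mL together with mouse GST-RANKL at 10 ng/mL, and RANKL cultures received the same RANKL without vesicles. Libraries of the same cells given vesicles alone (EV) or phosphate-buffered saline (PBS) for 48 h, 2 of each, are used below as well. So are EV+RANKL and RANKL libraries of 72 h, 2 of each. They show where this response recurred and serve in tests of whether it differed. All 16 libraries, EV and PBS libraries of 72 h among them, set which genes were tested and the spread behind each p of the main fit. No group received vesicles from another cell line. Separate cultures are not stated for the libraries of a group, and p-values here therefore reflect the spread between samples that may differ only technically.

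RANKL is the cytokine that turns macrophage precursors into osteoclasts, the multinucleated cells that resorb bone. It binds the receptor RANK, and NF-kB and AP-1 factors downstream of it induce the transcription factor NFATc1, which drives genes for cell fusion, acid secretion and matrix breakdown. Extracellular vesicles are membrane particles that carry proteins, lipids and RNA between cells, and prostate cancer is known for spreading to bone.

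The labelled cell line was checked by its markers. All 10 listed markers of the macrophage and precursor line reached 1 RPKM in at least 2 of the 16 libraries, with Lyz2 the most abundant, and their summed level was 2553 and 2946 RPKM (reads scaled by gene length and library size) in EV+RANKL libraries and 3422 and 3354 RPKM in RANKL libraries. Of the listed markers of epithelial or carcinoma cells, 6 of 15 were in the table and none exceeded 0.252 RPKM in any of 16 libraries, with Epcam, Krt8 and Krt19 at 0 in all 4 libraries of the comparison. Of the stromal and bone-forming markers, 8 of 13 were in the table and none exceeded 0.867 RPKM, with Col1a1 and Bglap at 0 in the 4 libraries and sums of 0.800 and 0.755 RPKM in EV+RANKL libraries against 0.546 and 0.701 RPKM in RANKL libraries. Markers of other blood cells summed to 4.96 and 3.16 RPKM in EV+RANKL libraries and 5.27 and 2.91 RPKM in RANKL libraries, with 11 of 20 in the table and 4 above the filter on low values (S100a8, Itgax, Cd83 and Pf4). Estimated depth was 18.5 M to 19.9 M reads in the 4 libraries (M for mega). Ribosomal protein genes took 9.34% and 9.51% of the summed RPKM in EV+RANKL libraries and 9.20% and 9.15% in RANKL libraries. In 5 libraries of 72 h (RANKL replicate 2, both EV and both EV+RANKL) that share was 11.04% to 11.5%, against 8.20% to 9.81% in the other 11, and all 5 lay above the other 11 in 782 genes and below them in 777. The 5 were chosen with earlier results of these data known and include every vesicle library of 72 h. These counts are therefore no test of a split, and the part of treatment and time in them was not tested.

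Few genes passed the threshold in the main fit when vesicles were added to RANKL for 48 h. Of 10365 genes tested (at least 1 RPKM in at least 2 of the 16 libraries), 45 passed the threshold of 0.05 on limma's Benjamini-Hochberg adjusted p, which is 0.434% of those tested. Of these, 28 rose in EV+RANKL libraries (0.270%) and 17 fell (0.164%), and 834 genes had an unadjusted p under 0.05. Counts of called members of gene lists below stand beside these shares, and the lists were chosen with earlier results known. Changes are given on the log2(RPKM + 1) scale, which understates the change of genes near or below 1 RPKM. On it 12 genes rose by at least 1 and 3 fell by at least 1. The genes that rose included the secreted protein Angptl2, the TGF-beta surface proteins Cd109 and Tgfbr1, the protease Plau, the AP-1 factors Fosl2 and Jdp2, the glycosyltransferase B4galt1 and the adhesion adaptor Bcar3. Those that fell included the cell death gene Pmaip1, the receptor Cd300ld and the adaptor Themis2. In all 45 genes the EV+RANKL and RANKL libraries did not overlap, as was so for 43.8% of all tested genes. Leaving out EV+RANKL replicate 1 or 2 reduced the count to 2 or 8 genes, and leaving out RANKL replicate 1 or 2 reduced it to 6 or 11. With only the 8 libraries of 48 h in the fit the count was 273, and without the 5 libraries of 72 h that stood apart it was 184, each holding all 45. The median absolute log2 difference between replicates was 0.077 to 0.092 in groups of 48 h and 0.114 to 0.182 in groups of 72 h. The small count of the main fit thus depends on a spread shared with libraries outside the comparison, and the part of each was not tested. Angptl2 was called without any of the 4 libraries, B4galt1, Cd109, Cyp2s1 and Rab15 were lost only without EV+RANKL replicate 1, and 33 genes were called in no fit that left out a library.

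**Figure D1:**
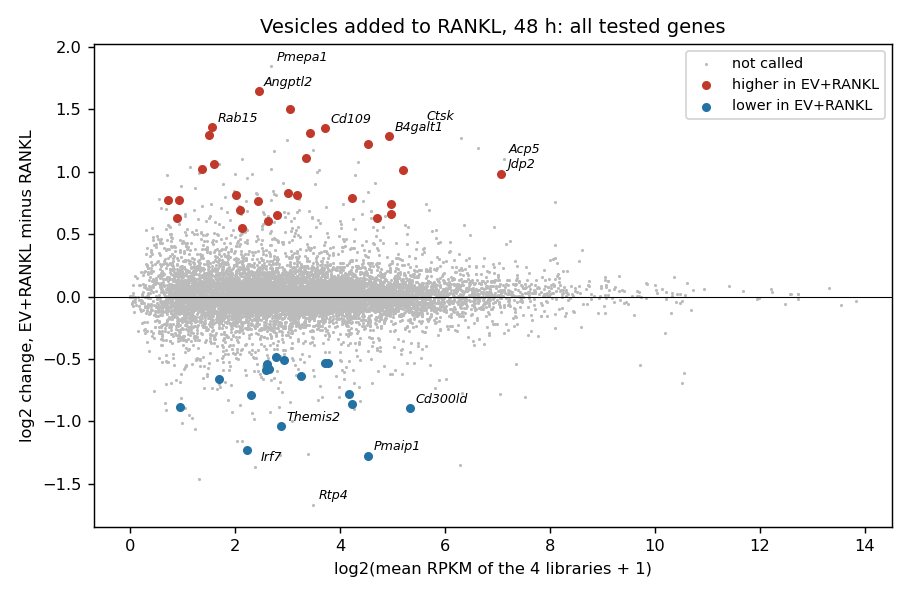
Change of every tested gene against its level. The x axis is log2 of the mean RPKM of the 4 libraries plus 1, the y axis is the log2 change (EV+RANKL minus RANKL at 48 h), and each point is a gene. Red points are the 28 genes that rose, blue points the 17 that fell and grey points the rest. Pmepa1, Acp5, Ctsk, Irf7 and Rtp4 lie far from 0 without passing the threshold.

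The starts of 2 of the genes that rose are shown first, since AP-1 factors were among the genes that rose and their binding motif can be looked for in promoters. Sequences are the 250 bases before the gene start from RefSeq, build GRCm38.p6, both on the plus strand: chr2:33215711-33215960 for Angptl2 and chr2:160880420-160880669 for Lpin3, a phosphatidate phosphatase of lipid synthesis. Capitals mark a match to the AP-1 motif TGANTCA.

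Angptl2: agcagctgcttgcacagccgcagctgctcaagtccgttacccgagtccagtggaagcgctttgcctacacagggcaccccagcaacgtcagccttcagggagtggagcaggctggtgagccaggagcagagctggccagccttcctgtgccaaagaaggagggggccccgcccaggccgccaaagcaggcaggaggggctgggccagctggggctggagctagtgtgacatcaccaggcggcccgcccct
Lpin3: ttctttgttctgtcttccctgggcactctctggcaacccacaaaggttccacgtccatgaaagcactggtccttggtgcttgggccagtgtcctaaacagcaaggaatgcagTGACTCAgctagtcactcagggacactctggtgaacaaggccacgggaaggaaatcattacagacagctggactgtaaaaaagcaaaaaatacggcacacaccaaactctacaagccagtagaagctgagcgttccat

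The Lpin3 window held the motif with its first base at -138 from the gene start, and the Angptl2 window held no match. The motif was found in 1 of 19 risen genes with a RefSeq window (5.3%), in 2 of 13 fallen genes (15.4%) and in 311 of 7798 tested genes (4.0%). The motif reads the same on both strands. The related CRE motif TGACGTCA was in none of the windows of risen or fallen genes and in 236 of the 7798 (3.0%).

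Among secreted and surface proteins, Angptl2, an angiopoietin-like protein that acts on neighbouring cells, stood at 7.21 and 7.28 RPKM in EV+RANKL libraries, against 1.75 and 1.53 RPKM in RANKL libraries. Both EV+RANKL values were far above both RANKL values and nearly equal to each other, giving a log2 change of 1.64 ± 0.13 (SE, limma adjusted p = 0.000157). It was at 6.36 and 7.53 RPKM with vesicles alone, against 1.01 and 0.645 RPKM in PBS, and the EV values lay on both sides of the EV+RANKL values. Of the 45 genes it was the only one called in every fit tried, with a change of 1.58 to 2.08 across them. Of 9 tested genes in a list of Angptl2 and its candidate receptors, it was the only one called.

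Plau, the urokinase that activates plasminogen, stood at 33.6 and 29.3 RPKM in EV+RANKL libraries and at 15.4 and 10.7 RPKM in RANKL libraries (1.22 ± 0.23, adjusted p = 0.0391). The libraries did not overlap. All 4 were below the libraries without RANKL, which held 58.1 and 70.0 RPKM with vesicles and 62.3 and 65.5 RPKM in PBS. Plau was thus lower with RANKL (-2.23 ± 0.23 for RANKL against PBS, adjusted p = 5.3e-05, a comparison that shares the RANKL libraries) and less low when vesicles were added. Of 13 tested genes of the urokinase system, metalloproteinases and their inhibitors, Plau was the only one called. The urokinase receptor Plaur had a log2 difference of -0.09 and did not pass.

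Cd109 and Tgfbr1 sit in the TGF-beta pathway, in which a ligand brings together type I and type II receptor kinases that activate SMAD proteins. Cd109, a membrane-anchored co-receptor known to restrain TGF-beta signalling, stood at 18.6 and 16.97 RPKM in EV+RANKL libraries, against 6.66 and 6.11 RPKM in RANKL libraries (1.35 ± 0.16, limma adjusted p = 0.00328). The EV+RANKL values reached those of cultures without RANKL, at 17.2 and 24.2 RPKM with vesicles and 14.8 and 18.1 RPKM in PBS. Tgfbr1, the type I receptor, stood at 15.8 and 10.3 RPKM in EV+RANKL libraries, against 6.34 and 4.56 RPKM in RANKL libraries (1.11 ± 0.19, adjusted p = 0.0291). Its libraries did not overlap, and replicate 1 was the higher in both groups. Pmepa1, a target of TGF-beta that restrains SMAD activation, had the largest change of all tested genes but missed the threshold, at 6.75 and 11.4 RPKM in EV+RANKL libraries and 1.30 and 2.22 RPKM in RANKL libraries (1.85 ± 0.38, adjusted p = 0.0622). Its 2 libraries within each group differed widely. Of 22 tested genes of the TGF-beta and BMP pathway, 2 rose and none fell, where 0.270% of all tested genes were called higher. Tgfbr2 (-0.21), Smad2 (0.00), Smad3 (-0.30) and Smad4 (-0.02) did not pass, and the list median was 0.01.

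Among AP-1 factors, which bind DNA as pairs of FOS, JUN and related proteins, Fosl2 (FRA-2) stood at 51.1 and 45.4 RPKM in EV+RANKL libraries, against 24.1 and 22.8 RPKM in RANKL libraries (1.01 ± 0.17, limma adjusted p = 0.0291). Jdp2, a dimerization partner of JUN proteins that is required for osteoclast formation in mice, stood at 174 and 180.3 RPKM in EV+RANKL libraries, against 91.5 and 86.9 RPKM in RANKL libraries (0.98 ± 0.14, adjusted p = 0.00782). In both genes the 4 groups of 48 h stood in one order without overlap, with EV+RANKL highest, then RANKL, then EV and PBS lowest. Fosl2 was at 12.9 and 11.4 RPKM in EV libraries and 2.72 and 3.45 RPKM in PBS libraries. Jdp2 was at 47.1 and 47.5 RPKM in EV libraries and 16.6 and 13.7 RPKM in PBS libraries. Other AP-1 members did not pass, with changes of 0.32 for Fos, 0.24 for Fosl1, 0.18 for Jun, 0.11 for Junb and -0.28 for Jund. Fosl2 and Jdp2 were the only 2 called among 22 tested osteoclast transcription factors, where 0.434% of all tested genes were called. The list median was 0.15, and 0.01 to 0.28 when each of the 4 libraries was left out.

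Of 23 tested focal adhesion and CAS family genes, Bcar3 rose and Cass4 fell, where 0.434% of all tested genes were called. Bcar3, an adaptor that binds the focal adhesion scaffold p130Cas, stood at 17.1 and 11.6 RPKM in EV+RANKL libraries, against 6.12 and 4.21 RPKM in RANKL libraries (1.31 ± 0.24, limma adjusted p = 0.0399). Cass4, a scaffold of the same family as p130Cas, was lower, at 2.25 and 2.93 RPKM in EV+RANKL libraries against 4.32 and 6.12 RPKM in RANKL libraries (-0.79 ± 0.14, adjusted p = 0.0291). In neither gene did the groups overlap. The next 5 called genes are on none of the lists and were put beside these for what they are known to do, so they are no count of a group. Rai14, which binds actin filaments, rose by 0.74 ± 0.14, Parvb, which links integrin complexes to actin, by 0.66 ± 0.12, Mical2, an actin-oxidising enzyme, by 0.65 ± 0.08, and Spata13, an exchange factor for Rac and Cdc42, by 0.60 ± 0.11. Fgd4, an exchange factor for Cdc42, stood at 1.493 and 1.503 RPKM in EV+RANKL libraries against 2.95 and 2.96 RPKM in RANKL libraries (-0.66 ± 0.11, adjusted p = 0.0226). The libraries of each Fgd4 group were nearly equal. Itgav, the integrin alpha-v chain, had 30.4 and 34.1 RPKM in EV+RANKL libraries against 16.9 and 16.5 RPKM in RANKL libraries and did not pass (0.91 ± 0.22, adjusted p = 0.0991).

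Called genes also included some enzymes that build sugar chains, without a common direction in their list. B4galt1, the Golgi enzyme that adds galactose to glycoproteins, stood at 42.7 and 42.4 RPKM in EV+RANKL libraries, against 17.8 and 16.0 RPKM in RANKL libraries (1.28 ± 0.15, limma adjusted p = 0.00328). St6galnac4, a sialyltransferase, stood at 10.5 RPKM in each EV+RANKL library, against 5.62 and 5.51 RPKM in RANKL libraries (0.81 ± 0.13, adjusted p = 0.0226). The libraries of each pair lay close together and far from the other pair. Of 18 tested galactosyl- and sialyltransferases these 2 rose and none fell, where 0.270% of all tested genes rose. The list was chosen with earlier results known, and 9 of the 18 had a positive change. The sialyltransferases St3gal5 (-0.90 ± 0.20, adjusted p = 0.0755) and St3gal6 (-1.06 ± 0.25, adjusted p = 0.0914) had negative changes that did not pass, and the list median was -0.05, and -0.04 to 0.04 when each of the 4 libraries was left out. Chst3, which adds sulfate to chondroitin chains, rose by 0.69 ± 0.13 (adjusted p = 0.0356).

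Rab15, a small GTPase of endosomes, stood at 3.39 and 3.04 RPKM in EV+RANKL libraries, against 0.513 and 0.791 RPKM in RANKL libraries (1.36 ± 0.15, limma adjusted p = 0.00328). It was near 0 without RANKL, at 0.113 and 0.0116 RPKM in EV libraries and 0.0116 and 0 RPKM in PBS libraries. With 0.1 in place of 1 added before the logarithm its change was 2.16. Cyp2s1, a cytochrome P450, stood at 3.15 and 2.89 RPKM in EV+RANKL libraries, against 0.686 and 0.597 RPKM in RANKL libraries (1.29 ± 0.16, adjusted p = 0.00328, and 2.07 with 0.1 added). Both genes were at about 3 RPKM in EV+RANKL libraries and below 1 RPKM in RANKL libraries, without overlap. Called genes on none of the lists, placed here only for what they are known to do, were Rilpl1, Pde4dip and Sec16b. Rilpl1, which binds Rab proteins, rose by 0.83 ± 0.16, Pde4dip, a Golgi and centrosome protein, by 0.79 ± 0.12, and Sec16b, of endoplasmic reticulum exit sites, by 0.77 ± 0.13. Sec16b was at 1.06 and 1.09 RPKM in EV+RANKL libraries against 0.189 and 0.249 RPKM in RANKL libraries, without overlap.

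Of transporters and metabolic enzymes, Slc6a8, which imports creatine, stood at 13.03 and 9.31 RPKM in EV+RANKL libraries, against 3.80 and 2.75 RPKM in RANKL libraries (1.503 ± 0.26, limma adjusted p = 0.0326). It was the only gene called among 17 tested creatine and amino acid transport genes, and the brain-type creatine kinase Ckb (-0.37) did not pass. Lpin3 stood at 1.38 and 1.42 RPKM in EV+RANKL libraries, against 0.451 and 0.365 RPKM in RANKL libraries (0.77 ± 0.13, adjusted p = 0.0291). Both rose without overlap. Pxdn, a peroxidase that crosslinks collagen IV, rose by 0.76 ± 0.14. Gda, which deaminates guanine, stood at 1.997 and 1.57 RPKM in EV+RANKL libraries, against 6.68 and 4.49 RPKM in RANKL libraries (-1.23 ± 0.24, adjusted p = 0.0495). Naaa, a lysosomal amidase of fatty acid ethanolamides, stood at 5.97 and 6.98 RPKM in EV+RANKL libraries, against 10.5 and 10.7 RPKM in RANKL libraries (-0.64 ± 0.12, adjusted p = 0.0494). Both fell without overlap and passed the threshold narrowly. Ugt1a7c, a glucuronidation enzyme, fell by 0.78 on the log2 scale, and since it shares exons with other genes of its cluster the reads counted for it are uncertain.

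Pmaip1 (NOXA), which promotes cell death by binding MCL1, had the largest fall of the called genes. It stood at 12.6 and 12.5 RPKM in EV+RANKL libraries, against 32.8 and 30.9 RPKM in RANKL libraries (-1.27 ± 0.15, limma adjusted p = 0.00328). The EV+RANKL values lay within the range of cultures without RANKL, which held 8.92 and 7.57 RPKM with vesicles and 14.1 and 11.9 RPKM in PBS. Bcl2a1d, an anti-death member of the family, stood at 11.4 and 13.1 RPKM in EV+RANKL libraries, against 20.7 and 25.4 RPKM in RANKL libraries (-0.86 ± 0.16, adjusted p = 0.0373). It has near-identical copies, among which the authors' counting could split reads, so its value is uncertain. Its copy Bcl2a1b changed by -0.05. Of 17 tested BCL2 family genes these 2 fell and none rose, where 0.164% of all tested genes were called lower. The list median was 0.03, and -0.01 to 0.02 when each of the 4 libraries was left out. Bcl2l11 (BIM), another promoter of cell death, had a change of 0.43 ± 0.14 that did not pass (adjusted p = 0.249).

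Among immune receptors and signalling proteins, Cd300ld, an activating myeloid receptor, stood at 24.3 and 30.4 RPKM in EV+RANKL libraries, against 52.4 and 50.5 RPKM in RANKL libraries (-0.89 ± 0.12, limma adjusted p = 0.00691). Themis2, an adaptor that binds GRB2, stood at 4.29 and 3.33 RPKM in EV+RANKL libraries, against 10.3 and 7.56 RPKM in RANKL libraries (-1.04 ± 0.17, adjusted p = 0.0281). Both fell without overlap. Of 8 tested CD300 and Siglec receptors Cd300ld was the only one called, and the list median was -0.16, and -0.29 to -0.03 when each of the 4 libraries was left out. Ssc5d, a soluble scavenger receptor, rose by 0.55 ± 0.10 (adjusted p = 0.0356), and Parp9, an interferon-induced protein that overlaps a gene on the other strand, fell by 0.49 on the log2 scale (adjusted p = 0.0291). Bcar3, Cyp2s1, Jdp2, Rilpl1, Rai14, Cass4 and Ugt1a7c overlap such a gene too, 8 in all. How the counting used strand was not given in the sources used here, and reads of these genes and of their partners may be mixed.

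Of the remaining named genes, the zinc finger gene Zfp462 rose by 1.06 ± 0.15, at 3.06 and 3.13 RPKM in EV+RANKL libraries against 1.005 and 0.925 RPKM in RANKL libraries. Tmem2, a membrane protein linked to hyaluronan breakdown, rose by 0.81 ± 0.13. Carhsp1, Tnni2, Gatsl2, Htatip2, Susd6 and Pam fell by 0.51 to 0.59 on the log2 scale, with adjusted p between 0.0183 and 0.0480. These 6 were small shifts of genes at 3.79 to 16.0 RPKM whose libraries did not overlap. The other 4 of the 45 have predicted or date-like names, 3 of them higher and 1 lower. Of the 45, 12 had a mean under 5 RPKM in their higher group.

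**Figure D2:**
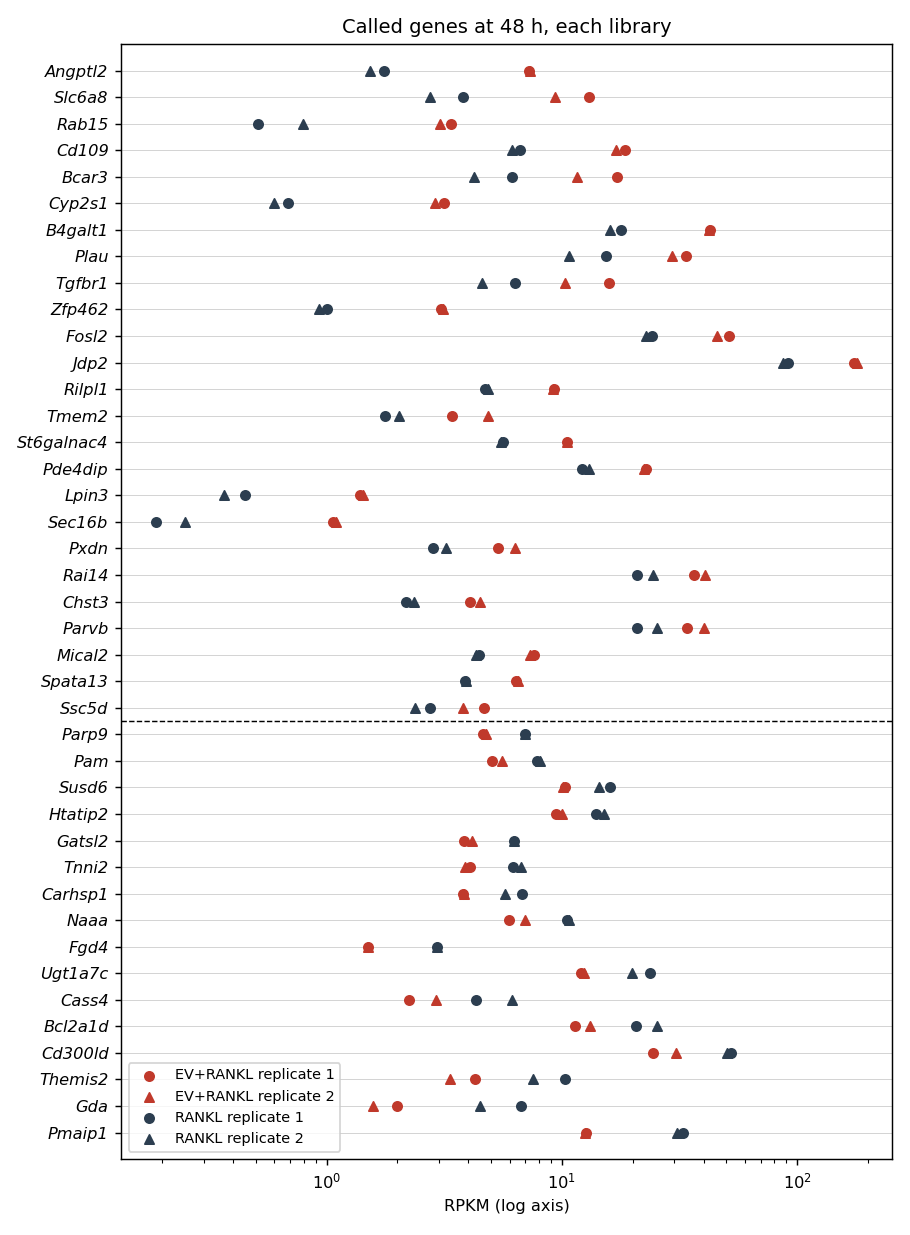
RPKM (log axis) of the 41 named genes in each library of 48 h, with red for EV+RANKL, dark blue for RANKL, circles for replicate 1 and triangles for replicate 2. The 25 genes above the dashed line rose and the 16 below it fell, and no gene's red and blue marks overlap in value.

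Of genes known for osteoclast function, Acp5, Atp6v0d2, Ctsk and Nfatc1 were higher in both EV+RANKL libraries than in both RANKL libraries. None of them passed the threshold. Mmp9, Oscar and Tnfrsf11a, given below, were not higher in this way. Acp5, the tartrate-resistant acid phosphatase that stains osteoclasts, stood at 209 and 168 RPKM in EV+RANKL libraries, against 88.0 and 85.4 RPKM in RANKL libraries (1.10 ± 0.26, limma adjusted p = 0.0914). Atp6v0d2, which encodes part of the proton pump, stood at 161 and 112 RPKM in EV+RANKL libraries, against 63.8 and 53.3 RPKM in RANKL libraries (1.19 ± 0.32, adjusted p = 0.134). Ctsk, the protease cathepsin K that degrades bone collagen, stood at 87.9 and 46.4 RPKM in EV+RANKL libraries, against 28.5 and 20.5 RPKM in RANKL libraries (1.37 ± 0.49, adjusted p = 0.365). In all 3 genes the groups did not overlap, as was so in this direction for 22.1% of all tested genes. EV+RANKL replicate 1 was well above replicate 2 in each. Nfatc1, the main transcription factor of osteoclasts, stood at 147 and 141 RPKM in EV+RANKL libraries, against 93.9 and 101.4 RPKM in RANKL libraries (0.56 ± 0.17, adjusted p = 0.202). With only the 8 libraries of 48 h in the fit, limma adjusted p was 0.00929 for Acp5 and 0.0181 for Nfatc1. It was 0.0287 for Atp6v0d2 and 0.0418 for Ctsk there. With the 4 libraries alone Acp5 (0.0339) and Nfatc1 (0.0434) passed, but Atp6v0d2 (0.0595) and Ctsk (0.132) did not. Without the 5 libraries of 72 h that stood apart Ctsk did not pass (0.0558), while Acp5, Atp6v0d2 and Nfatc1 did. Whether these genes pass thus depended on which libraries set the spread. Without EV+RANKL replicate 1 the change of Acp5 was 0.94 (adjusted p = 0.611).

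Other osteoclast genes differed less. The fusion genes Dcstamp and Ocstamp had changes of 0.44 ± 0.35 and 0.29 ± 0.21, and the costimulatory receptor Oscar 0.51 ± 0.40 with overlapping libraries. Mmp9, a gelatinase of osteoclasts, stood at 6.70 and 4.30 RPKM in EV+RANKL libraries and 8.93 and 5.61 RPKM in RANKL libraries (-0.34 ± 0.36), also overlapping. Tnfrsf11a, which encodes RANK itself, stood at 35.9 and 35.4 RPKM in EV+RANKL libraries and 38.3 and 36.5 RPKM in RANKL libraries (-0.07 ± 0.20). Myc had 48.0 and 77.1 RPKM in EV+RANKL libraries and 28.4 and 48.7 RPKM in RANKL libraries, where replicate 2 was the higher in both groups (0.69 ± 0.33, adjusted p = 0.655). Itgb3, the integrin beta-3 chain, was at most 0.373 RPKM in these libraries, and Irf8, a repressor of osteoclast formation, was between 0.788 and 0.971 RPKM in all 4 (-0.0038 ± 0.26). A p that misses the threshold does not show that these genes stayed level.

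**Figure D3:**
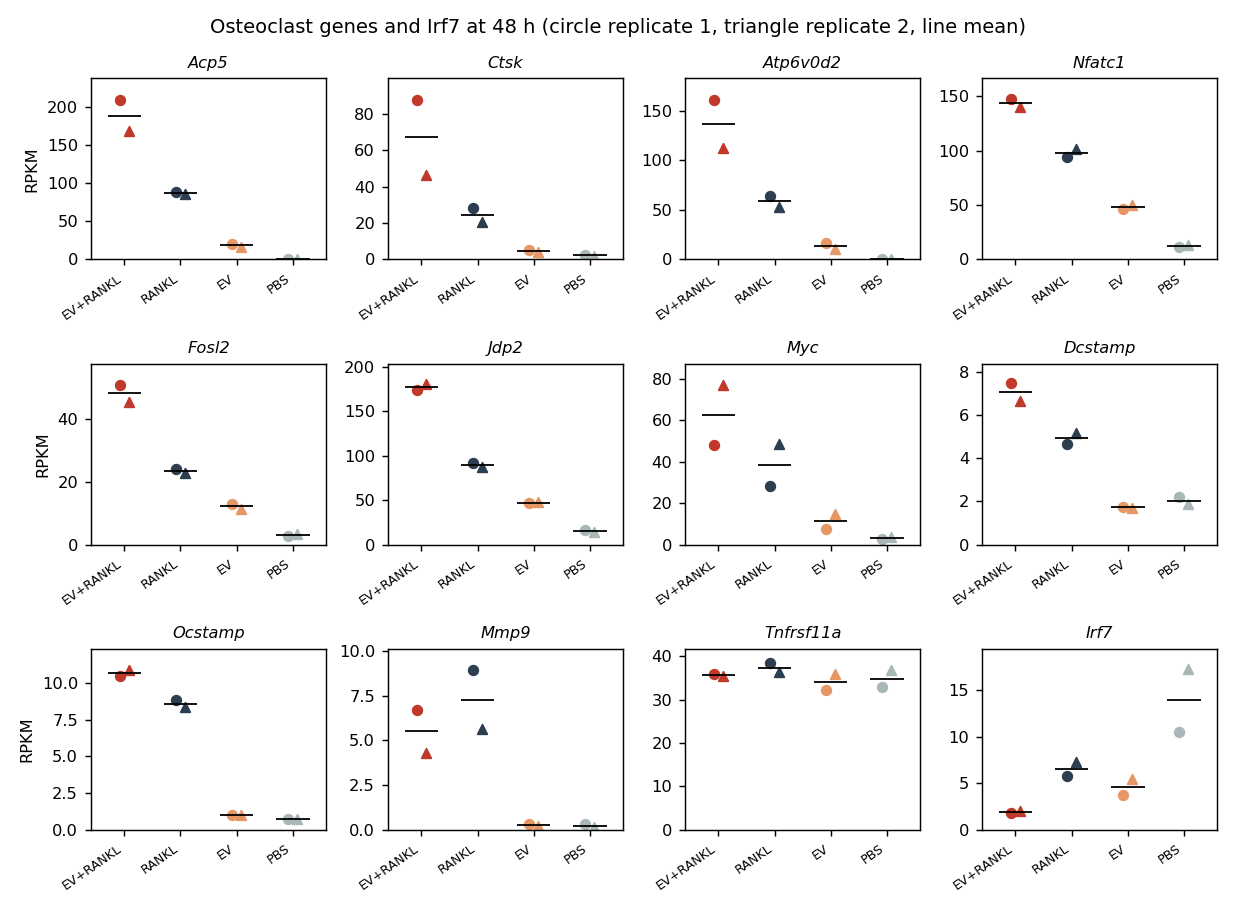
RPKM of 11 osteoclast-related genes and Irf7 in each library of 48 h, in the order EV+RANKL, RANKL, EV and PBS, with lines at group means. Acp5, Ctsk, Atp6v0d2, Nfatc1, Fosl2 and Jdp2 fall in steps over the 4 groups, Tnfrsf11a stays between 32.2 and 38.3 RPKM, and Irf7 has its lowest values in EV+RANKL and its highest in PBS.

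Gene lists were then described by their counts and medians, beside 5281 of 10365 tested genes (50.95%) with a positive change and a median of 0.0022 over all of them. None of the counts below is a test of a list. Brackets after a median give its range when each of the 4 libraries was left out in turn. Of 17 tested genes of the resorption machinery, 16 had a positive change and none passed, with a median of 0.42 [0.27 to 0.50], the lowest without EV+RANKL replicate 1. All except Mmp9 were positive, from Ostm1 (0.08) to Ctsk (1.37), and they included the sodium-proton exchanger gene Slc9b2 (1.10) and the tyrosine kinase Src (0.68). Of 15 fusion and costimulation genes 9 were positive (median 0.05 [-0.01 to 0.06]), with Sirpa (-0.77 ± 0.22) the largest change and none called. Of 20 RANK signalling genes 10 were positive (median -0.0033 [-0.04 to 0.04]), with the kinase Tec at 0.57 ± 0.17 the largest and none called. Of 19 negative regulators of osteoclast formation 3 were positive (median -0.09 [-0.22 to -0.11]) and none was called. Without EV+RANKL replicate 2 their median was -0.22 and without RANKL replicate 1 it was -0.20, each with more than 3 positive. Id3, the largest of them, had 0.0279 and 0.570 RPKM in EV+RANKL libraries against 1.65 and 3.63 RPKM in RANKL libraries (-1.46 ± 0.43, adjusted p = 0.194).

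All 24 tested interferon-stimulated genes had a negative change, with a median of -0.34 [-0.39 to -0.34], and none passed. With 0.1 in place of 1 added before the logarithm the median was -0.78, and over the 14 with at least 5 RPKM it was -0.64. Irf7, the transcription factor that amplifies type I interferon responses, came nearest, at 1.75 and 2.04 RPKM in EV+RANKL libraries against 5.75 and 7.22 RPKM in RANKL libraries (-1.36 ± 0.27, limma adjusted p = 0.0551). It passed with only the 8 libraries of 48 h in the fit (adjusted p = 0.023), with the 4 libraries alone (adjusted p = 0.0216) and without the 5 libraries of 72 h that stood apart (adjusted p = 0.0181), and it did not pass when any of the 4 libraries was left out (adjusted p = 0.191 to 0.453). The libraries did not overlap, as was so in this direction for 21.8% of all tested genes. Irf7 was also lower with vesicles alone, at 3.71 and 5.43 RPKM in EV libraries against 10.5 and 17.2 RPKM in PBS libraries. The RNA sensor Ddx58 (RIG-I) had -0.87 ± 0.17 (adjusted p = 0.0551) and Ifi44 had -1.16 ± 0.24 (adjusted p = 0.0678). At the other end Ifit2 had -0.10 and Ifi204 had -0.15. Without EV+RANKL replicate 1 the change was negative in 22 of the 24, and without RANKL replicate 2 in 23. Outside the list, Rtp4, another interferon-induced gene, had the most negative change of all tested genes (-1.67 ± 0.37, adjusted p = 0.0785) and was picked out after its value was seen. Of 13 antigen presentation genes 10 were negative (median -0.12 [-0.17 to -0.08]), with Cd74 the largest at -0.66 ± 0.25. Of 18 macrophage identity genes 13 were negative (median -0.08 [-0.32 to 0.04]) and none was called, the largest being Gpnmb at 1.27 ± 0.42. That list kept no one direction, with 10 positive and 7 negative without RANKL replicate 1 (median 0.04) and a median of -0.32 without RANKL replicate 2. Summed markers of the macrophage line were also lower in EV+RANKL libraries, as given above, and their part in these values was not tested.

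Of 23 sterol synthesis genes 22 were positive (median 0.17 [0.14 to 0.23]) and none passed, from -0.07 for Dhcr7 to 0.40 for Mvd. Of 24 genes of the respiratory chain and TCA cycle 23 were positive (median 0.12 [0.09 to 0.13], the largest being Sdhb at 0.29 ± 0.17) and none passed. Of 23 glycolysis and hypoxia genes 19 were positive (median 0.09 [0.0092 to 0.18]) and none passed. Their count fell to 13 without EV+RANKL replicate 2 (median 0.02) and to 14 without RANKL replicate 1 (median 0.0092). Among them Vegfa, at 2.06 and 3.23 RPKM in EV+RANKL libraries against 0.877 and 2.01 RPKM in RANKL libraries, had the largest change (0.60 ± 0.35). Of 16 genes of lipid efflux and LXR targets 12 were positive (median 0.07 [-0.04 to 0.18]), but 7 without EV+RANKL replicate 1 (median -0.04) and 8 without RANKL replicate 2 (median 0.0013). In that list lipoprotein lipase Lpl was lower, at 121 and 145 RPKM in EV+RANKL libraries against 221 and 243 RPKM in RANKL libraries, and did not pass (-0.80 ± 0.18, adjusted p = 0.0854). Of 29 genes of DNA replication and mitosis 5 were positive (median -0.09 [-0.12 to -0.04]), none called, and their median was -0.04 without EV+RANKL replicate 1 and -0.05 without RANKL replicate 2. Ccnd1, the cyclin of entry into the cell cycle, was the largest at -0.24 ± 0.13.

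The lists left had medians within 0.09 of 0 and few or no calls. Tetraspanins and vesicle proteins had 7 of 16 positive (median -0.03 [-0.08 to 0.01]), with Cd9 at 0.13 ± 0.18, Cd63 at 0.42 ± 0.15 and Cd81 at -0.12 ± 0.09. These are mouse transcripts of the recipient cells. Inflammatory cytokines and NF-kB targets had 7 of 17 positive (median -0.09 [-0.18 to 0.14]), with Tnfaip2 at -0.84 ± 0.23 the largest. Their sign turned without EV+RANKL replicate 1 (median 0.05) and without RANKL replicate 1 (median 0.14), with 10 of 17 positive in each. Immediate early and MAPK feedback genes had 14 of 21 (median 0.06 [0.02 to 0.14]), with the phosphatase Dusp1 at -0.85 ± 0.24 the largest. Lysosome and V-ATPase genes had 16 of 26 (median 0.06 [0.04 to 0.09]) and 1 call, Naaa. The unfolded protein and integrated stress response had 14 of 21 (median 0.04 [-0.01 to 0.08]) and none called, with Atf3 (-0.35 ± 0.49) the largest. Without RANKL replicate 1 the count was 9 and without EV+RANKL replicate 2 it was 10. NRF2 targets had 8 of 21 (median -0.06 [-0.14 to -0.0033]) and none called, with Gstt1 (-0.53 ± 0.37) the largest. Of them 1 was positive without EV+RANKL replicate 2 (median -0.14) and 10 without EV+RANKL replicate 1. Single libraries thus decided the sign or size of several of these medians, and no direction is given for those lists.

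**Figure D4:**
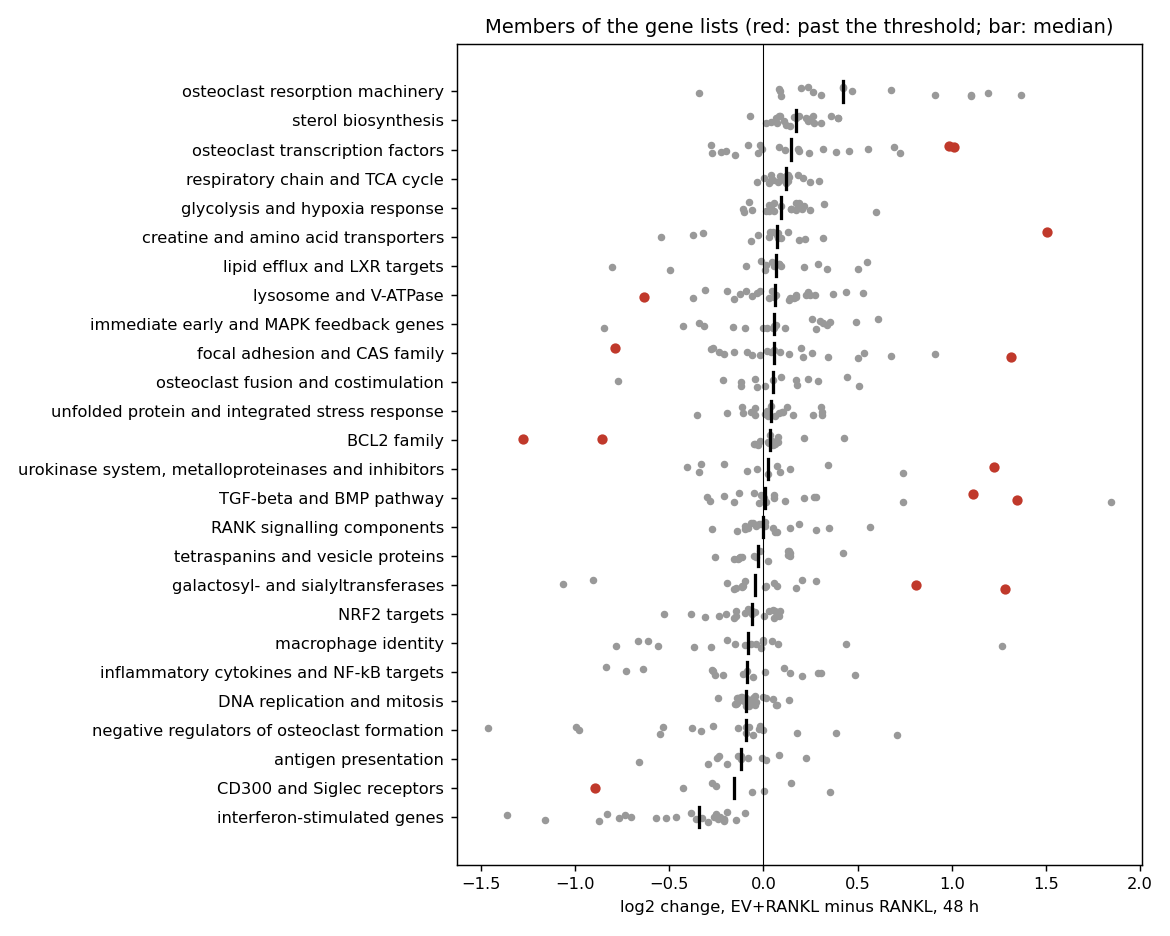
The log2 change (EV+RANKL minus RANKL at 48 h, x axis) of each tested member of 26 gene lists (rows), sorted by the median, which is the black bar. Red points passed the threshold and grey points did not. Interferon-stimulated genes lie wholly below 0, and 16 of 17 resorption genes lie above it.

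The same vesicles were also compared with PBS in cultures without RANKL at 48 h, and EV+RANKL with RANKL at 72 h. Neither comparison contrasts a library used in the one above, but they share with it the filter and the estimate of the spread. The choice of the 45 genes also favours those with large changes in the first. In EV against PBS, which had 134 calls in all (1.29% of genes, 0.608% higher and 0.685% lower), 42 of the 45 had the same sign (93.33%, against 66.07% of all tested genes). Of them 16 also passed, 14 higher and 2 lower, which is 35.6% of the 45 and 11.9% of the 134. At 72 h, with 190 calls (1.83%, of which 1.30% higher and 0.531% lower), 45 of 45 had the same sign (against 65.35% of all tested genes), and 26 also passed, 19 higher and 7 lower (57.8% of the 45 and 13.7% of the 190). Without RANKL replicate 2 of 72 h, which stood with the vesicle libraries, the same sign held for 43 of 45. Both EV+RANKL libraries of 72 h were among the 5 that stood apart, and the RANKL library left was not. In that fit the vesicle effect and this split cannot be told apart. With both RANKL libraries kept the split was still uneven between the groups, and its part was not tested. The 28 risen genes had a median change of 0.66 with vesicles alone and 0.76 at 72 h, beside 0.82 in the original comparison, and the 17 fallen genes had -0.35 and -0.52, beside -0.66. Over 10365 genes Pearson's r was 0.565 between the changes of EV against PBS and those of EV+RANKL against RANKL at 48 h, and 0.602 between 72 h and 48 h. Genes are not independent, and no p is given.

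Single genes differed between these settings. Angptl2 rose in all 3, by 2.12 ± 0.13 with vesicles alone and by 1.74 ± 0.13 at 72 h, where it stood at 13.9 and 11.7 RPKM in EV+RANKL libraries against 2.84 and 3.42 RPKM in RANKL libraries. Rab15, Plau and Cd109 had changes of 0.08, -0.0035 and 0.30 with vesicles alone, none past the threshold, and of 1.85, 1.21 and 1.29 at 72 h, all past it. Rab15 at 72 h stood at 10.7 and 8.46 RPKM in EV+RANKL libraries, against 1.57 and 2.33 RPKM in RANKL libraries. Of the interferon-stimulated genes all 24 were negative in both of these comparisons too, with medians of -0.56 (8 called lower) and -0.55 (9 called lower). The resorption genes were positive in 14 of 17 with vesicles alone (median 0.11, 2 called higher) and in 17 of 17 at 72 h (median 0.69, 4 called higher, Acp5 among them at 1.24 ± 0.26, adjusted p = 0.0330). Replication and mitosis genes did not keep one sign, with 24 of 29 positive with vesicles alone (median 0.04) and 1 of 29 at 72 h (median -0.32).

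**Figure D5:**
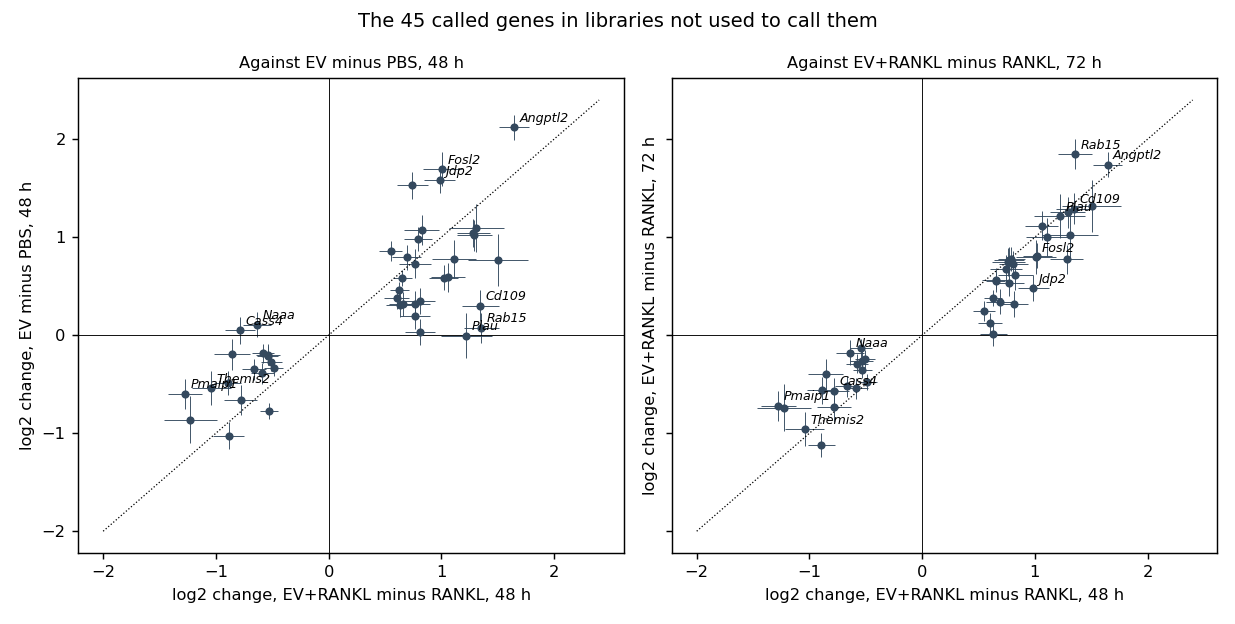
The log2 change of the 45 genes in EV minus PBS at 48 h (left, y axis) and in EV+RANKL minus RANKL at 72 h (right, y axis), against their change in EV+RANKL minus RANKL at 48 h (x axes), with bars of 1 SE and a dotted line of equal change. On the left 3 genes lie in a quadrant of opposite sign and Rab15, Plau and Cd109 lie far below the line. On the right all 45 keep their sign.

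Whether the vesicle effect differed with and without RANKL was tested as an interaction in the same fit, (EV+RANKL minus RANKL) minus (EV minus PBS) at 48 h. A single gene passed (0.00965% of those tested), Mmp8, a neutrophil collagenase, at 0.0612 and 0.0416 RPKM in EV+RANKL libraries, 0.0438 and 0.0204 RPKM in RANKL libraries, 0.470 and 0.457 RPKM in EV libraries and 3.66 and 3.88 RPKM in PBS libraries. In the 4 RANKL-treated libraries it lay below the 0.151 RPKM that 3 reads in 1 kb of transcript are worth. In total 318 genes had an unadjusted p under 0.05. Of the osteoclast genes, the difference was -2.39 ± 0.36 for Acp5 (adjusted p = 0.0749) and -1.37 ± 0.23 for Nfatc1 (adjusted p = 0.108), whose log2 changes were larger with vesicles alone from far lower levels. Acp5 stood at 20.5 and 16.2 RPKM in EV libraries against 0.564 and 0.872 RPKM in PBS libraries. For Rab15 the difference was 1.28 ± 0.22 (adjusted p = 0.108), for Plau 1.23 ± 0.32 (adjusted p = 0.659) and for Cd109 1.04 ± 0.23 (adjusted p = 0.401). None of the 45 genes was therefore shown to respond differently with RANKL than without it.

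The difference between the effect at 72 h and at 48 h passed the threshold for 0 genes in limma. At an unadjusted p under 0.05 there were 375. A gene with a predicted name came nearest, with a difference of 2.57 ± 0.34 (limma adjusted p = 0.0557). Among the genes of smallest p with an annotated name, Tnfsf8, the CD30 ligand, differed by 1.02 ± 0.25, Zeb2os by -0.94 ± 0.24 and Tst, a sulfurtransferase, by 0.87 ± 0.22, each with adjusted p = 0.921. Without RANKL replicate 2 of 72 h 90 genes passed, among them Zeb2os (adjusted p = 0.00451) and Tnfsf8 (adjusted p = 0.0363). That fit left RANKL at 72 h with 1 library, which is assumed to vary like the other groups. That library was not among the 5 that stood apart, and both EV+RANKL libraries of 72 h were. The vesicle effect at 72 h and this split cannot be told apart there. With all libraries kept, the count was 22 with no filter on low values and 0 or 1 under the other settings.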

How the data were processed

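RNA libraries (TruSeq mRNA kit) were made from cell pellets, per the labels' protocols. FastQC, HISAT2 and Partek are named in the submitters' processing notes, together with the human builds GRCh38 and hg38, although the gene names are mouse symbols. The mouse build, annotation, counting and strand setting were not given in the sources used here, and no gene coordinates were taken from the files. Despite its name the deposited table does not hold whole counts. No source used here states the unit of the deposited values. They were taken to be log2(RPKM + 1), inferred from the values themselves: with base 2, 83.7% of low values in 1901 single-exon genes were within 0.05 reads of a whole number, against 69.7% with base e and 34.4% with base 10. The same steps gave an estimated depth of 18.3 M to 19.9 M reads over the 16 libraries, at which 3 reads in 1 kb are worth 0.151 to 0.164 RPKM. The column of EV+RANKL replicate 2 at 48 h has no letter for RANKL and was placed by its plus sign and its time, which together mark no other group.

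Of 20490 genes, the 10365 with at least 1 RPKM in at least 2 of 16 libraries were tested with limma 3.58.1 in R 4.3.3 on the deposited log2 values, with 8 group means, a variance trend and Benjamini-Hochberg adjustment over all tested genes. A count-based test was not used because the values are not counts. On simulated data for EV+RANKL against RANKL at 48 h with 10365 genes, 24 of 67 genes changed by 0.5, 57 of 67 changed by 1 and 63 of 66 changed by 2 on the log2 scale were recovered, with 4 false calls. The simulation drew independent normal noise with the same spread of a gene in all groups. In the data replicates of 72 h differed more than those of 48 h, so these figures need not hold for the real comparison. Changes are ± SE, and n = 2 libraries a group throughout. Named genes were the 25 largest called changes in each direction with a mean of at least 1 RPKM in the higher group and no overlap, called members of the gene lists, the member of largest change of lists without a call, 22 fixed osteoclast, vesicle and response genes, and the genes of smallest p in the tests of differences. The members, the 31 lists (616 genes, 581 in the table, 501 tested) and the tests were chosen with earlier results of these data known. Alternatives were another scaling, pseudocount, filter or variance model, fewer libraries, a replicate block, and each library left out. Of the 45 called genes 41 were found in GENCODE release M21, and 11 of them overlap another gene's exons.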

Additional observations from a re-analysis of the deposited data

Results flagged for a closer look

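Mmp8, which encodes a neutrophil collagenase, was picked out because the effect of vesicles differed with and without RANKL at 48 h, tested as an interaction in limma (1.73 ± 0.16 on the log2(RPKM + 1) scale, adjusted p = 0.00115). It stood at 0.0612 and 0.0416 RPKM in EV+RANKL libraries and 0.0438 and 0.0204 RPKM in RANKL libraries, and at 0.470 and 0.457 RPKM in EV libraries and 3.66 and 3.88 RPKM in PBS libraries. The change with vesicles was 0.03 with RANKL and -1.70 without it. Adjusted p was 0.000399 to 0.0192 over the alternatives except with 0.1 in place of 1 added before the logarithm, where it was 0.442. It was not tested with a minimum of 5 RPKM. All values in RANKL-treated libraries lie below 0.151 RPKM, the worth of 3 reads in 1 kb of transcript.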

How the results depend on the processing

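The 45 calls of EV+RANKL against RANKL at 48 h became 29 with quantile normalization (21 higher and 8 lower, 28 of them shared), 273 with the libraries of 48 h only, 184 without the 5 libraries of 72 h that stood apart, 108 with the 4 libraries alone (35 shared) and 2 to 11 when each of the 4 libraries was left out. Median centring gave 42, a pseudocount of 0.1 gave 58, no filter gave 40 (29 higher and 11 lower, 18 shared), a minimum of 5 RPKM gave 40 and no variance trend gave 44. All 45 kept their sign in every fit that tested them. The difference of the vesicle effect with and without RANKL (1 call) gave 2 calls with quantile normalization, 13 with no filter, 0 with a minimum of 5 RPKM, where Mmp8 was not tested, and 1 to 2 when each library was left out. The difference between 72 h and 48 h (0 calls) gave 1 call with quantile normalization, 1 with median centring, 1 with a minimum of 5 RPKM, 22 with no filter and 0 to 90 when each library was left out. The replicate numbers are not said by the labels to pair the libraries. Replicate differences of EV+RANKL and RANKL libraries correlated at 0.476, and those of the 6 pairs of 48 h groups at 0.14 to 0.476, but with 2 replicates a group this does not establish pairing. With the replicate number as a block there were 112 calls, all 45 among them and Irf7 added (adjusted p = 0.0442), 8 for the difference with and without RANKL and 1 for that between times. Fits without 72 h libraries or with a block have another estimate of the spread, and the cause of the other shifts was not tested. Of the values of named genes under the alternatives, 884 kept their side of the threshold, 205 lost the threshold and 30 gained it. A reversal of sign was counted only for values past the threshold in the main fit or the alternative, and there were 0. The 884 include changes of sign in genes that passed in neither, as for Tnfsf8 (-0.01, and 0.11 without EV+RANKL replicate 2). The changes of genes near or below 1 RPKM depend on the pseudocount.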
